A study of Drosophila melanogaster with 6 samples.

Results

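The alkaline phosphatase genes described here are Alp9 (CG5150) and Alp10 (CG10592), which lie next to each other on chromosome arm 3L of Drosophila melanogaster. They are the genes whose molecular function entry in the authors' deposited table holds the term for alkaline phosphatase activity, and 2 of the 260 probe sets of that table carry it, among 18952 probe sets on the array. Total RNA from whole adults aged 7 days on standard fly food was hybridised to Affymetrix arrays, 3 arrays of flies labelled DHR96 mutant and 3 of Canton S, a wild-type strain whose genetic background the series' design text says was matched. The gene once called DHR96 is now named Hr96 and encodes a nuclear receptor, a protein of the class of ligand-binding transcription factors. The labels give neither the allele nor the sex, and do not say whether replicates were separate collections of flies, so the spread between them may be technical. The study asks which transcripts differ in level when this receptor is mutated.

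Alkaline phosphatases are zinc-containing enzymes that remove phosphate groups from small molecules and proteins at alkaline pH. In animals many of them are held on the outer face of the plasma membrane by a lipid anchor, and forms on the brush border of the intestine, where they face the lumen, are the best known. In flies the family includes Alp4 (Aph-4), known for its expression in the Malpighian tubule, the insect's renal organ.

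The members were selected with these same arrays: the deposited table keeps probe sets whose signed fold between DHR96 mutant and Canton S, and q-value, met the authors' criteria. The difference between the groups is therefore given below as a description, with no test. In the authors' deposited table Alp9 has a fold of 1.66 and Alp10 a fold of 1.399, both with a q-value listed as 0%. That q-value is shared by 129 of its 260 probe sets. The smallest fold that the authors' deposited table lists as higher in the mutant is 1.301, so both genes lie inside that limit. By deposited fold they rank 52 and 118 among its 180 probe sets listed as higher. Which genes of the family lay just outside the limit is not known here, since probe sets outside the table carry no gene name in the sources used.

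Both genes had a higher signal in the mutant flies, and Alp9 differed more than Alp10. Values are linear probe set intensities, in arbitrary units, that the authors had normalized between arrays. Alp9 (probe set 1637660_at) read 2906, 3107 and 2676 on DHR96 mutant replicates 1, 2 and 3, against 1828, 1724 and 1672 on Canton S replicates 1, 2 and 3. The groups did not overlap: the lowest mutant value was 1.46 times the highest Canton S value. Alp9 averaged 2896 ± 216 in DHR96 mutant and 1741 ± 79.3 in Canton S flies (SD, n = 3 each), a log2 difference of 0.73 (SE 0.0595, from the limma fit) or a 1.66-fold higher level.

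Alp10 (probe set 1636287_at) read 3078, 3179 and 3022 on DHR96 mutant replicates 1, 2 and 3, against 2285, 2138 and 2211 on Canton S replicates 1, 2 and 3. Here too every mutant array lay above every Canton S array, the lowest mutant value being 1.32 times the highest Canton S value. The means were 3093 ± 79.6 in DHR96 mutant and 2211 ± 73.2 in Canton S flies (SD, n = 3 each), a log2 difference of 0.48 (SE 0.0373) or a 1.396-fold higher level.

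**Figure D1:**
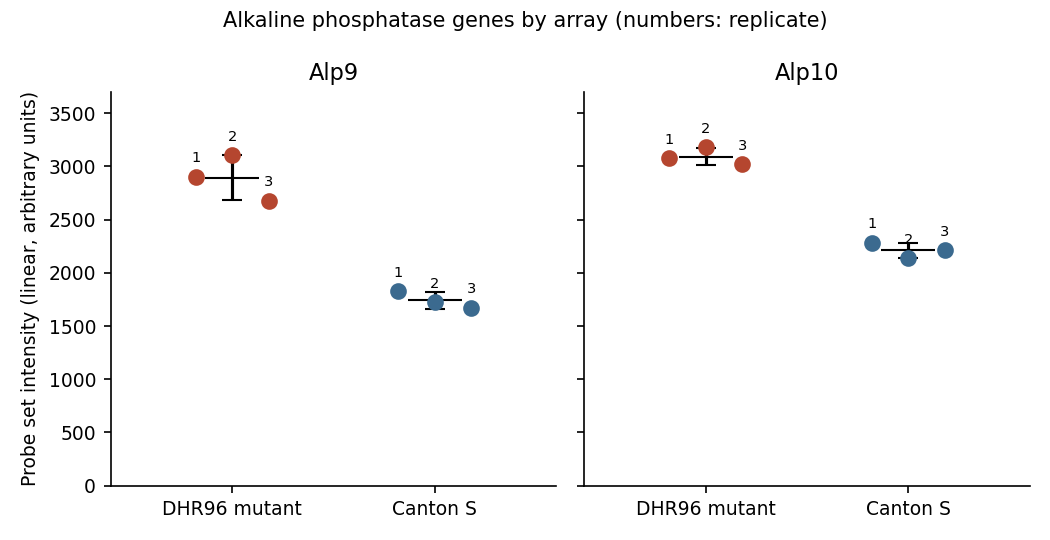
Linear probe set intensity (vertical axis, arbitrary units, starting at 0) of Alp9 and Alp10 on each array, with DHR96 mutant left of Canton S. Numbered points are replicates, and bars are the mean and SD of 3 arrays. The mutant arrays lie between 2676 and 3107 for Alp9 and between 3022 and 3179 for Alp10, above every Canton S array of the same gene.

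Differences were fitted with limma on log2(intensity + 16) over the 18769 probe sets that are not manufacturer's controls. Of the 2 genes, 2 were past limma's Benjamini-Hochberg threshold of 0.05, where 6.96% of all probe sets were past it in either direction and 3.29% were past it and higher in the mutant. The 3 values of each group were apart, with the mutant higher, for 13.9% of all probe sets. Since the genes were taken from a table selected on this comparison, these counts had to be high and nothing is read from them. The median log2 difference was 0.60 for the 2 genes and -0.0015 over all probe sets tested. Of all probe sets, 0.282% (53) had a larger log2 difference than Alp9 and 0.762% (143) a larger one than Alp10.

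Both transcripts gave signals in the upper part of the array in both strains. The percentile of Alp9 among all probe sets of its array was 90.5 to 92.2 in the mutant and 83.8 to 85.1 in Canton S. For Alp10 it was 91.7 to 92.4 in the mutant and 87.6 to 88.4 in Canton S. The lowest value on an array was between 97.2 and 103.4, so neither gene was near the floor in either strain. Percentiles of different probe sets depend on their probes and do not order the 2 transcripts by amount.

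On these 3 arrays per group the replicates of Alp10 lay relatively closer together than those of Alp9. Whether the genes differ in spread was not tested. The coefficient of variation of Alp9 was 7.45% over the mutant arrays and 4.55% over the Canton S arrays, and 84.3% and 54.7% of probe sets had a lower one in those groups. For Alp10 it was 2.57% in the mutant and 3.31% in Canton S, with 30.9% and 36.2% of probe sets lower. The wider spread of Alp9 in the mutant came from replicates 2 and 3, whose values were 431 units apart.

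Within the mutant group the genes kept the same order of arrays, with replicate 2 the highest and replicate 3 the lowest for both. In Canton S, replicate 1 was the highest for both, and the lowest was replicate 3 for Alp9 and replicate 2 for Alp10. To set the genes side by side, each log2 value was reduced by the gene's own Canton S mean. Alp9 then exceeded Alp10 by 0.26, 0.31 and 0.17 on DHR96 mutant replicates 1, 2 and 3. On Canton S replicates 1, 2 and 3 the same quantity was 0.023, 0.034 and -0.057, so the groups did not overlap. Its mean was 0.25 (SD 0.0718, n = 3) in the mutant, and it is 0 in Canton S by construction (SD 0.0498, n = 3). The larger difference of Alp9 was thus seen within every mutant array, as a description of 2 genes selected on this comparison.

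Other measurements of the same arrays are set beside these values here. Hr96 itself read 928 to 985 on the DHR96 mutant arrays and 498 to 546 on the Canton S arrays; where its probe set lies relative to the mutation is not given, so it does not check the labels. The ratio of the 3′ to the 5′ control probe set of actin, a sign of RNA quality, was 2.31 to 2.61 in the mutant and 2.23 to 2.37 in Canton S. For GAPDH it was 1.35 to 1.42 in the mutant and 1.299 to 1.349 in Canton S, and for eIF-4a 2.27 to 2.70 in the mutant and 2.21 to 2.51 in Canton S. DHR96 mutant replicate 2, which had the highest signal of both alkaline phosphatase genes, also had the highest of each ratio. Canton S went the other way for actin and eIF-4a. Its replicate 1, the highest of that group for both genes, had the lowest of these ratios, 2.23 and 2.21. The part of RNA quality in the differences was not tested.

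The Dap 3′ spike-in control, added RNA that reports on labelling, read 473 and 519 on DHR96 mutant replicates 2 and 3, against 1217 on replicate 1 and 1007 to 1208 on the Canton S arrays. DHR96 mutant replicate 1, the one mutant array with a spike-in reading like that of Canton S, lay between the other two mutant arrays for both genes. No sample label names a labelling batch. One was inferred from the low spike-in readings alone, by setting mutant replicates 2 and 3 apart. Whether those readings came from labelling or from another step was not tested. With this inferred labelling batch as a block, only replicate 1 stood for the mutant beside Canton S. The log2 difference was then 0.73 (SE 0.0914) for Alp9 and 0.47 (SE 0.0585) for Alp10. Without the block the log2 differences were 0.73 for Alp9 and 0.48 for Alp10. Both low spike-in readings were on mutant arrays, and the part of labelling in the differences was not tested. The fit with the block rests on 1 mutant array. In that fit 0 of the 2 genes were past limma's adjusted threshold, against 31 of all 18769 probe sets (0.165%). At an unadjusted p under 0.05 there were 2 of the 2 genes and 10.6% of all probe sets (1987), and nothing is read from this count, since the genes were selected on these arrays.

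**Figure D2:**
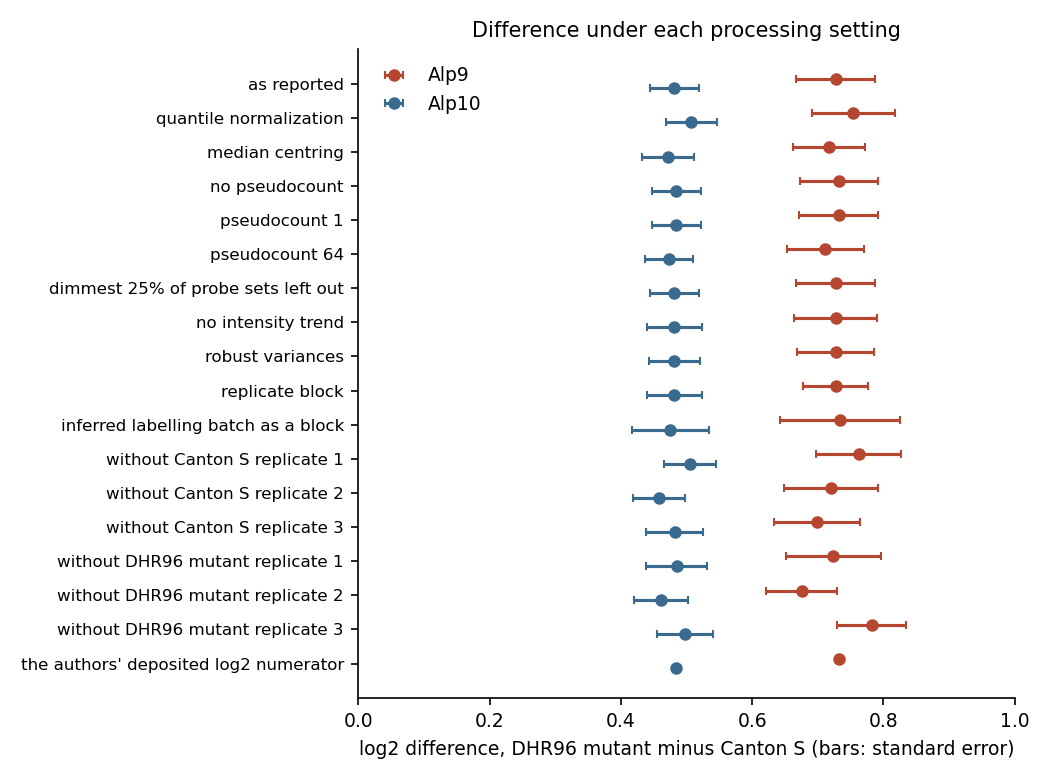
Log2 difference, DHR96 mutant minus Canton S (horizontal axis), of Alp9 and Alp10 under each processing setting (rows), with the standard error of the limma fit as bars; the authors' deposited value has none. Alp9 stays between 0.68 and 0.78 and Alp10 between 0.46 and 0.51, so the genes keep their order in every row.

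The neighbourhood of the pair held no other gene of the deposited table. In the gene order of Release 6 of the fly genome, protein-coding genes only, the pair is flanked by spo and l(3)psg2 beyond Alp10 and by CG10591 and TM9SF3 beyond Alp9. The gene spo encodes a cytochrome P450 of ecdysteroid synthesis. None of these 4 is in the deposited table, and their values are not identified by name here. The nearest listed genes are CG15213, at 36 genes before Alp10, and the digestive protease gene Jon65Aii, at 52 genes after Alp9.

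Pairs of listed neighbours were not rare in the deposited table, a comparison made after the values were seen. Among 244 named genes (168 higher, 76 lower), each represented by its brightest probe set, 26 pairs were immediate neighbours. Of these, 15 pairs had both genes higher in the mutant, Alp9 and Alp10 among them, 5 had both lower and 6 had opposite directions. The gap between the log2 differences of a pair had a median of 0.40. It was 0.25 for Alp9 and Alp10, in place 11 of the 26 from the smallest. The chitin deacetylase genes verm and serp, both higher, were 0.0196 apart, and Mal-B1 and Mal-B2, which encode maltases, went opposite ways at 0.56 and -0.64.

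**Figure D3:**
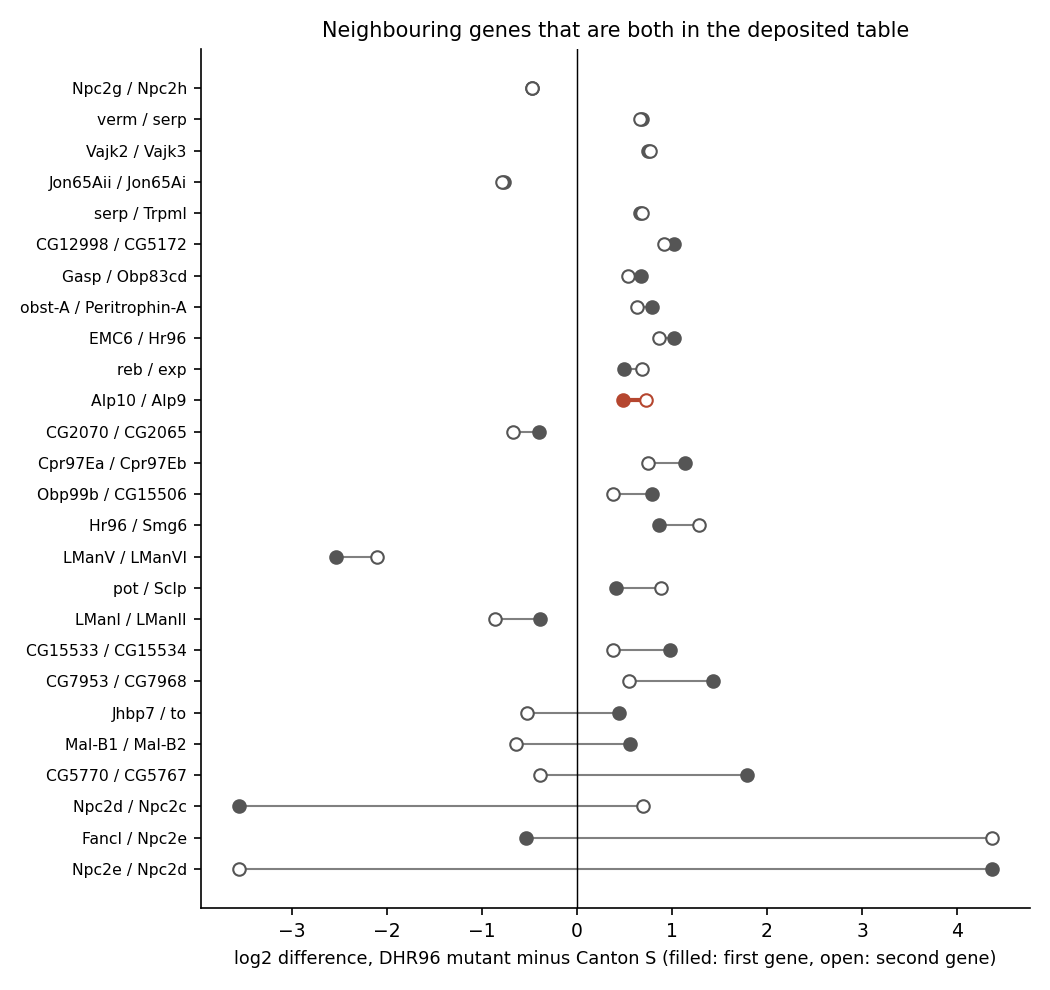
Log2 difference, DHR96 mutant minus Canton S (horizontal axis), for the 26 pairs of immediately neighbouring genes that are both in the deposited table (rows, smallest gap at the top). Filled points are the first gene of a pair in gene order, open points the second. Alp10 and Alp9, in red, are one of 15 pairs with both genes to the right of 0.

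Alp9 and Alp10 are paralogs, and the sequences of their probes were not used here. Whether either probe set also picks up the transcript of the other gene was not tested. The identifiers end in _at, the manufacturer's form for a probe set meant to match a single gene's transcripts.

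The gene table names 12 genes of the family, Alp1, Alp2 and Alp4 to Alp13. The 10 others are not among the genes listed in the deposited table, which says nothing of their levels here. Alp7, Alp2 and Alp8 form another run of neighbours, on arm 2R, so that 5 of the 12 have a family member beside them, and the 2 that are listed form one of these runs. Both listed genes carry the term for nucleotide phosphatase activity, which no other probe set of the deposited table holds. They also share a term for skeletal development with Hr96 and no other gene of the table, assigned electronically per the file; mammalian alkaline phosphatase is known for its part in bone mineralisation.

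Beside the pair, a listed acid phosphatase gene was lower in the mutant and a listed phosphate carrier gene was higher. A list of 16 other phosphomonoesterase genes had 1 in the table, CG9451, which encodes an acid phosphatase by its ontology term. It read 1670, 1292 and 1492 on DHR96 mutant replicates 1, 2 and 3, against 2093, 2026 and 2327 on Canton S replicates 1, 2 and 3, with no overlap. Its log2 difference was -0.53 (SE 0.0928), past limma's adjusted threshold and opposite in sign to Alp9 and Alp10. A list of 8 phosphate transport genes had 0 in the table. MFS12 (CG8791), annotated in the table as a sodium-dependent phosphate carrier and named after its value was seen, read 1565, 1774 and 1654 on DHR96 mutant replicates 1, 2 and 3, against 1103, 902 and 807 on Canton S replicates 1, 2 and 3. Its groups did not overlap, and its log2 difference was 0.83 (SE 0.106), past the same threshold.

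Of a list of 30 intestinal brush border and lumen genes, of digestion and uptake, 16 were in the deposited table. Of these 16, 4 rose and 12 fell past limma's adjusted threshold, with a median log2 difference of -0.78, and the other 14 genes have no value by name here. By the smallest p these were Npc2e, Npc2d, mag and LManV. Npc2e, of a family of sterol-binding proteins, averaged 12017 ± 546 in DHR96 mutant and 567 ± 43.2 in Canton S flies (SD, n = 3 each). Its family member Npc2d averaged 189 ± 17.0 in DHR96 mutant and 2412 ± 314 in Canton S flies. The lipase gene mag averaged 1354 ± 19.7 and the alpha-mannosidase gene LManV 717 ± 66.0 in DHR96 mutant flies, against 5481 ± 436 and 4248 ± 311 in Canton S flies. The log2 differences of Alp9 and Alp10, at 0.73 and 0.48, had the sign of the 4 that rose, and were smaller in size than those of the 4 genes just named. By sign, 168 of the 244 named genes of the table were higher in the mutant and 76 lower. The table was chosen on the same arrays, and the list with earlier results known. The counts are therefore not independent evidence, either of direction or of passing the threshold.

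Markers of the cell types in a whole fly could be read only as far as the table lists them. Of 7 fat body markers 3 were listed, Lsp2, Fbp1 and Fbp2, and the other 4 have no value by name here. The summed intensity of these 3 was 6995 to 9721 in the mutant arrays and 2591 to 3339 in the Canton S arrays. These 3 markers were listed because they differed on this comparison. The gap between groups in their summed intensity therefore had to be present, and nothing is read from it. Within the mutant arrays that sum was highest on replicate 3, the array where both alkaline phosphatase genes were lowest. It was lowest on replicate 1, where both genes lay between the other arrays. Fbp1 and Fbp2 were highest on replicate 3, but Lsp2 was highest on replicate 2 (5348), as were both alkaline phosphatase genes. Of 8 midgut enterocyte markers 1 was listed, the sterol uptake gene Npc1b. It read 1052 to 1148 in the mutant and 406 to 456 in Canton S. Npc1b too was listed because it differed, and 1 gene so chosen does not stand for the enterocytes. Of the 16 listed intestinal genes above, 12 fell, and Npc1b is among the 4 that rose. Of 7 Malpighian tubule, 4 haemocyte, 4 neuron, 3 testis and 3 ovary markers 0 were listed, so the labelled whole-animal source could not be checked against them. The part of cell makeup in the differences was not tested, and in RNA of whole flies more cells of a type and more RNA per cell cannot be told apart.

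Several listed genes had a profile over the 6 arrays nearer to each alkaline phosphatase gene than the other one had. Likeness was the mean absolute difference over the 6 arrays between log2(intensity + 16) profiles, each set to 0 at its own Canton S mean, and 246 listed probe sets with a single named gene were compared. For Alp9 the nearest were Pebp1, a gene named for phosphatidylethanolamine binding, at 0.0452, the hnRNP gene Hrb87F at 0.0467 and CG15080 at 0.0551. For Alp10 they were the calcium-activated potassium channel gene slo at 0.0463, the atypical cadherin gene ft at 0.0474 and CG8834 at 0.0478. Alp9 and Alp10 were 0.142 apart from each other: 50 of the 246 lay nearer to Alp9 and 108 nearer to Alp10. The measure mainly reflects the size of the difference between the groups, which the table was selected on.

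The nearest profiles show what that likeness amounts to. Pebp1 read 10899, 11598 and 11083 on DHR96 mutant replicates 1, 2 and 3, against 6594, 6563 and 6492 on Canton S replicates 1, 2 and 3. As for Alp9, its mutant replicate 2 was the highest, but its lowest mutant array was replicate 1. Its log2 difference was 0.77 (SE 0.0314), near the 0.73 of Alp9. The slo probe set read 1380, 1396 and 1343 on DHR96 mutant replicates 1, 2 and 3, against 935, 972 and 948 on Canton S replicates 1, 2 and 3. Its mutant arrays had the order of Alp10, but its Canton S arrays had the reverse order. The slo probe set was highest on Canton S replicate 2 and lowest on replicate 1. Its log2 difference was 0.52 (SE 0.0360) beside the 0.48 of Alp10.

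**Figure D4:**
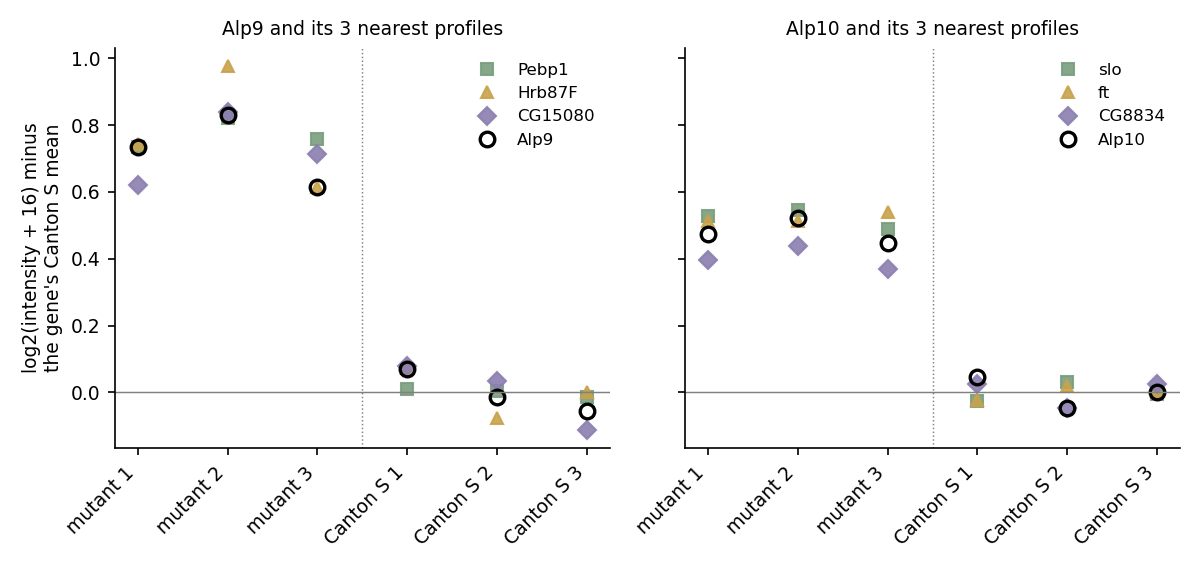
Log2(intensity + 16) minus the gene's own Canton S mean (vertical axis) on the 3 DHR96 mutant arrays, left, and the 3 Canton S arrays, right, for Alp9 and Alp10 (open circles) with the 3 nearest listed genes of each. The mutant arrays of Alp9 lie at 0.62 to 0.83 and those of Alp10 at 0.45 to 0.52, while all Canton S points lie near 0.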

How the data were processed

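The authors deposited, for every probe set, an intensity on a linear scale, already normalized between arrays; array medians lay between 470.4 and 484.2. MAS5 is the tool named in the submitters' processing notes, without its version or what it was used for; the background correction is not stated. The authors' deposited table gives a SAM score, a log2 numerator, a fold with its sign and a q-value written in percent, per the file headers, for 260 probe sets in 286 rows. Of these, 251 matched a gene by CG number in the RefSeq gene table of Release 6, used only for names, chromosome arms and gene order.

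The 183 control probe sets were set aside and 18769 were fitted with limma 3.58.1 (R 4.3.3) on log2(intensity + 16), group as the only term, eBayes with an intensity trend, two-sided, Benjamini-Hochberg over all 18769, threshold 0.05. The fit was tested on simulated data. Differences are mutant minus Canton S. The number of arrays limits the precision. The members and lists were chosen with earlier results of these data known. Named were both members, the 3 nearest profiles of each, the neighbours in gene order, and up to 4 listed genes of each list by smallest p; any other gene is marked in the text as picked afterwards. The alternatives were other scalings, pseudocounts, filters and variance models, blocks, each array left out, and the authors' deposited log2 numerator in place of the fitted difference. Planned comparisons of protein and promoter sequences were not made, since no sequences were used here.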

Additional observations from a re-analysis of the deposited data

How the results depend on the processing

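The log2 differences of Alp9 and Alp10 kept their direction, and moved by less than the spread between replicates, in all 16 refits of each and in the authors' deposited log2 numerator, which equals the fit with no pseudocount: 0.68 to 0.78 for Alp9 and 0.46 to 0.51 for Alp10, left-out arrays included. Both were past limma's adjusted threshold with every single array left out (2 of 2 each time) and in each other fit except with the inferred labelling batch as a block, where 0 were and 31 of all probe sets were. Over the whole array the count of 1306 (617 higher, 689 lower) was 813 without an intensity trend and 287 to 803 with an array left out: 287, 803 and 494 without Canton S replicates 1, 2 and 3, and 450, 587 and 426 without DHR96 mutant replicates 1, 2 and 3. Higher calls were 47.2% of the total, 57.6% (630 higher, 463 lower) after quantile normalization and 47.9% after median centring. The replicate number as a block left 240 probe sets past the threshold. Same-numbered arrays deviated with correlations of 0.190, -0.225 and -0.244 over probe sets. With 3 arrays per group these values do not settle whether same-numbered arrays shared a day or a collection. The cause of these changes in count was not tested, beyond the fewer arrays of the left-out fits. Neither gene's signal was near the background, and the number of arrays limits what can be told.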

Other observations

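Other listed genes with phosphatase or phosphodiesterase terms, taken after their values were seen, went both ways. CG15533 and its neighbour CG15534, both annotated as sphingomyelin phosphodiesterases, which release ceramide from sphingomyelin, had log2 differences of 0.98 (SE 0.0834) and 0.38 (SE 0.0969). CG15533 averaged 1260 ± 110 in DHR96 mutant and 632 ± 61.5 in Canton S flies (SD, n = 3 each) and was past limma's adjusted threshold; CG15534 averaged 383 ± 51.6 in DHR96 mutant and 289 ± 22.3 in Canton S flies and was not. CG17746, annotated as a protein serine/threonine phosphatase, rose by 0.58 (SE 0.0801), and Gbs-76A, annotated as a regulator of protein phosphatase type 1, fell by 0.45 on the log2 scale (SE 0.0588), both past the same threshold.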
